A study of Mus musculus with 12 samples.

Results

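ITGA5 neutralization on fibronectin was examined in mouse bone marrow macrophages (BMMs) by comparing 3 libraries from cells exposed to a neutralizing anti-ITGA5 antibody (FN anti-ITGA5) with 3 libraries from cells exposed to control IgG (FN IgG). These 6 libraries, of 12 in the series, were chosen by their labels for dish coating and antibody. The cells of all 6 came from the marrow of wild-type C57BL/6J mice aged 2 to 3 months, were differentiated with CSF-1, and were passaged onto dishes that had been coated with fibronectin at 10 µg/ml. Once confluent they received either antibody at 10 µg/ml for 24 h, so the groups differ by design in which antibody was added. Binding of the antibody to the receptor and the blockade itself cannot be told apart. The other 6 libraries repeat both antibodies on uncoated dishes. The question was which mediators and pathways depend directly on ITGA5 in macrophages, outside the injured tissue in which secondary effects may also act. No gene was deleted. The study describes its replicates as independent experiments, but the sources used here do not say whether each library came from its own mice. Where the libraries share animals, the p-values measure only the spread between these samples.

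ITGA5 is the α5 chain of integrin α5β1, a surface receptor that binds fibronectin and passes signals on through focal adhesion kinase, PI-3K/Akt and the actin cytoskeleton. Macrophages grown with CSF-1 divide in culture, and adhesion to matrix is one of the cues that bear on growth, survival and gene expression. A neutralizing antibody occupies the receptor protein and need not alter its mRNA.

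Counts on genes ranged from 18843744 to 22075432 per FN IgG library and from 16364962 to 19359505 per FN anti-ITGA5 library, and mitochondrial genes held 1.28% to 1.41% of them. The 100 most abundant genes took 25.2% to 25.6% of counts in FN IgG and 23% to 23.2% in FN anti-ITGA5. FN anti-ITGA5 replicate 3, the library with the fewest counts, stood apart from the other FN anti-ITGA5 libraries. Its pairs had chi-square values of 5.64 and 7.98 per gene, against 3.48 for replicates 1 and 2 and 2.96 to 4.8 in FN IgG. It was the highest of the FN anti-ITGA5 libraries for 53 of 53 interferon-stimulated genes tested and the lowest for 40 of 41 mitosis genes. Results that rest on this library are therefore given with and without it.

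Of 13023 genes with at least 10 counts in 3 or more libraries, 3560 (27.3%) passed the test upon ITGA5 neutralization (edgeR quasi-likelihood test, Benjamini-Hochberg adjusted p at or under 0.05). Of these, 1867 were higher (14.3% of those tested) and 1693 were lower (13.0%), and these shares are the background for every gene group described here. Higher genes made up 52.4% of the calls with TMM scaling and 65.5% with scaling to total counts, which moved the median log2 fold change of all genes from -0.003 to 0.04. Most changes were small: the median absolute log2 fold change of the called genes was 0.326 (interquartile range 0.224 to 0.521), and 73.0% were under 0.5. A log2 change of 1 or more was seen in 184 higher and 141 lower genes. The depth-scaled counts of the groups did not overlap for 97.4% of the called genes and for 42.1% of all genes tested. FPKM (fragments per kilobase of gene, scaled to the library) is used for levels, and every fold change is a log2 value of FN anti-ITGA5 over FN IgG with its standard error. An exact permutation test of a single gene over 3 against 3 libraries cannot go below p = 0.10, so the tests given are those of the fit across all genes.

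**Figure D1:**
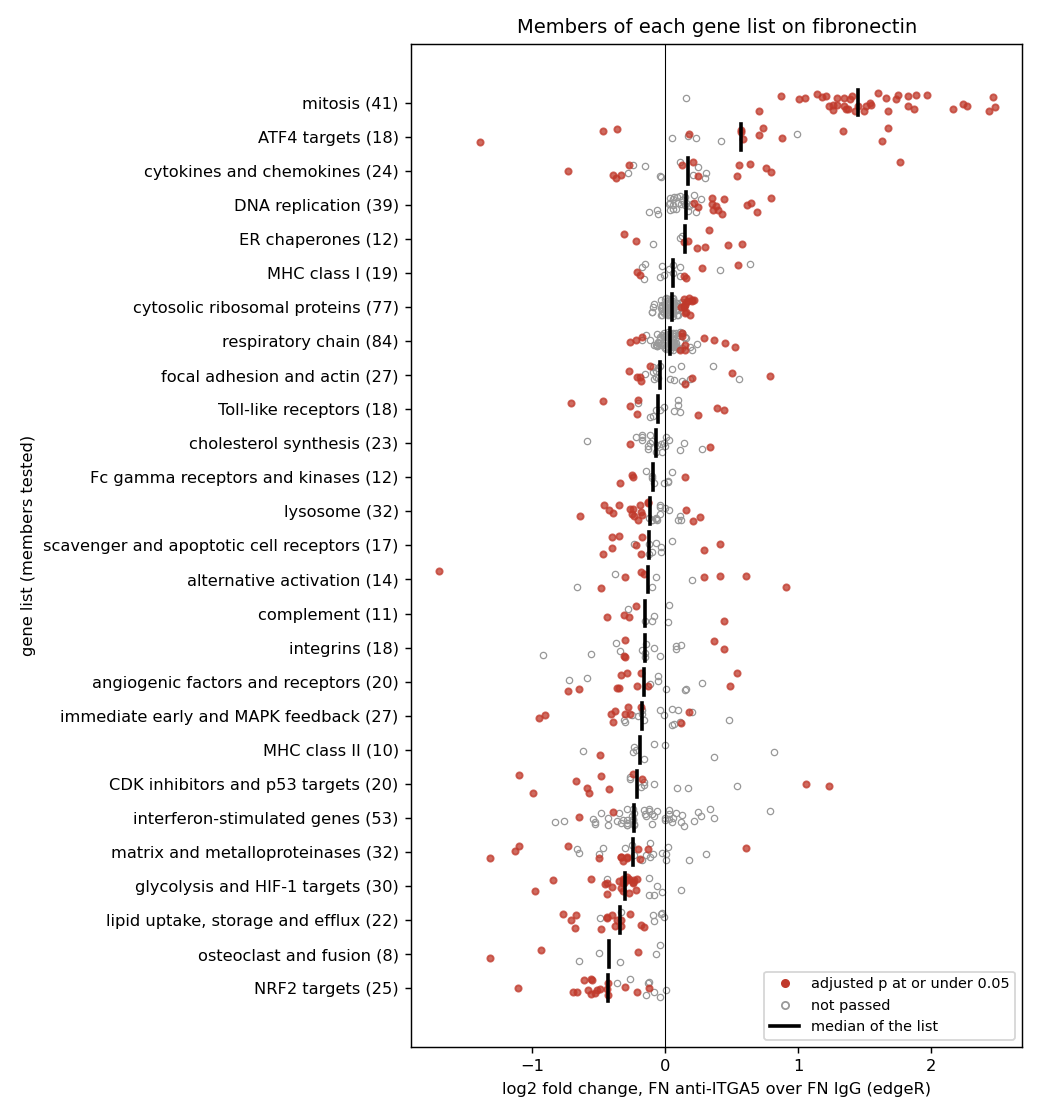
Each row is a gene list and each point a tested member, placed by its log2 fold change of FN anti-ITGA5 over FN IgG; filled points passed at an adjusted p at or under 0.05 and bars mark list medians. The mitosis list lies farthest to the right with a median of 1.45, and the NRF2 list farthest to the left with a median of -0.43.

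The mRNA of the targeted integrin did not pass the test. Itga5 (ENSMUSG00000000555, GRCm38 chr15:103344286-103366763, minus strand) had FPKM of 45.5, 46.1 and 49.0 with IgG and of 48.7, 47.4 and 52.2 with anti-ITGA5. The groups overlapped, and the log2 fold change was 0.08 ± 0.05 (SE; adjusted p = 0.27). Its partner Itgb1, the β1 chain, had FPKM of 283.5, 283.6 and 275.1 with IgG and of 274.5, 265.9 and 257.9 with anti-ITGA5 (log2 fold change -0.08, adjusted p = 0.141). Since the antibody acts on the protein, neither value checks the blockade. Among 18 integrin genes tested of 26 listed, 2 were higher, 3 were lower and the median was -0.15. Itgam and Itgb2, which together form the complement receptor Mac-1, both fell. Itgam went from 59.9, 59.1 and 60.6 FPKM to 47.0, 50 and 47.7 (log2 fold change -0.31, adjusted p = 1.09e-04), and Itgb2 from 364.9, 359.5 and 359.1 to 287, 292.2 and 301.3 (-0.30, adjusted p = 7.09e-05). Itgb5, the β chain of the vitronectin receptor αvβ5, fell by 0.30 on the log2 scale. Itgb7 rose by 0.37 and the low-level Itgax by 0.44. Without FN anti-ITGA5 replicate 3 the count of lower integrin genes was 5, and 1 was higher without FN IgG replicate 1 or 3 or FN anti-ITGA5 replicate 2. In those fits the call of Itgax was lost (adjusted p up to 0.12).

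Genes of focal adhesions and actin moved in both directions, with 4 higher and 5 lower of 27 tested and a median of -0.04, counts near the background of 14.3% higher and 13.0% lower. Actg1, cytoplasmic γ-actin, had FPKM of 378, 306 and 399 with IgG and of 525, 485 and 517 with anti-ITGA5, with no overlap (log2 fold change 0.50 ± 0.08, adjusted p = 4.66e-04). The actin crosslinker Flna rose by 0.20, while the crosslinker Actn1 fell by 0.27 and the adaptor paxillin (Pxn) by 0.21. Actb, at 1918 to 2184.5 FPKM with IgG and 2191 to 2316.5 with anti-ITGA5, did not pass (0.13, adjusted p = 0.0748), nor did Ptk2, which encodes focal adhesion kinase (-0.07, adjusted p = 0.551). The count of higher members fell to 1 without FN IgG replicate 1 or FN anti-ITGA5 replicate 1 and to 2 without FN IgG replicate 2, and it was 9 with total-count scaling, under which 18.5% of all genes were higher. The call of Flna was lost in these 3 fits (adjusted p up to 0.0804).

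The mitosis list had the highest median and the largest share of higher members among the 27 lists. Of 41 members, all tested, 40 were higher and none was lower (background 14.3% higher), with a median log2 fold change of 1.45 and 38 members at 1 or more. The summed level of the list was 305.3 to 412.9 FPKM with IgG and 794.1 to 1091.7 with anti-ITGA5. The count of 40 was the same in all 6 fits that left out a library. In 40 members the FPKM of the groups did not overlap, though FN anti-ITGA5 replicate 3 was the lowest of its group in 40 and FN IgG replicate 3 the lowest of its own in 38. Relative to each gene's mean in FN IgG, the median member stood at 2.88, 3.10 and 2.30 in FN anti-ITGA5 replicates 1, 2 and 3. In bulk RNA, more cells in division and more RNA of these genes per cell cannot be told apart. The exception was Pttg1, which encodes securin, an inhibitor of separase, with a log2 fold change of 0.16 (adjusted p = 0.307).

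The members with the largest rises act at the entry to mitosis and at the exit from it. Ube2c, the ubiquitin-conjugating enzyme of the anaphase-promoting complex (ENSMUSG00000001403, chr2:164769898-164778822, plus strand), had FPKM of 4.68, 7.16 and 3.88 with IgG and of 29.7, 34.4 and 21.8 with anti-ITGA5 (log2 fold change 2.44 ± 0.19, adjusted p = 3.39e-06). The lowest treated library held more than any control library. Cdc20, an activator of the same complex, rose from 6.75, 7.62 and 4.97 to 31.7, 36.0 and 24.2 FPKM (2.24 ± 0.15, adjusted p = 2.11e-06). Plk1, a kinase of centrosomes and kinetochores, rose from 7.76, 8.52 and 5.64 to 36.8, 43.4 and 26.2 FPKM (2.27 ± 0.17, adjusted p = 2.49e-06). The treated means were 546% of the IgG mean for Ube2c, 475% for Cdc20 and 485% for Plk1. Ccnb2, a B-type cyclin that pairs with CDK1, went from 7.52, 9.15 and 6.41 to 37.2, 42.2 and 25 FPKM (2.17 ± 0.17, adjusted p = 3.90e-06). Cdc25c, the phosphatase that activates CDK1, went from 1.62, 1.35 and 1.06 to 7.51, 8.72 and 6.26 FPKM (2.48 ± 0.17, adjusted p = 2.11e-06). Cdkn3, a phosphatase that acts on cyclin-dependent kinases, went from 1.42, 1.41 and 0.728 to 6.52, 8.18 and 5.13 FPKM (2.47 ± 0.22, adjusted p = 7.59e-06). Incenp, a subunit of the chromosomal passenger complex and the list member with the highest level in FN IgG, showed a smaller rise, from 44.1, 46.8 and 39.0 to 82.6, 86.2 and 68.1 FPKM (0.87 ± 0.08, adjusted p = 1.14e-05). Mki67, whose protein coats mitotic chromosomes and marks dividing cells, rose by 1.35 on the log2 scale. Gene overlaps matter for Ube2c and Cdc20, whose annotated spans meet Tnnc2 and Elovl1, because the strand setting of the counting is not given in the sources used here.

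**Figure D2:**
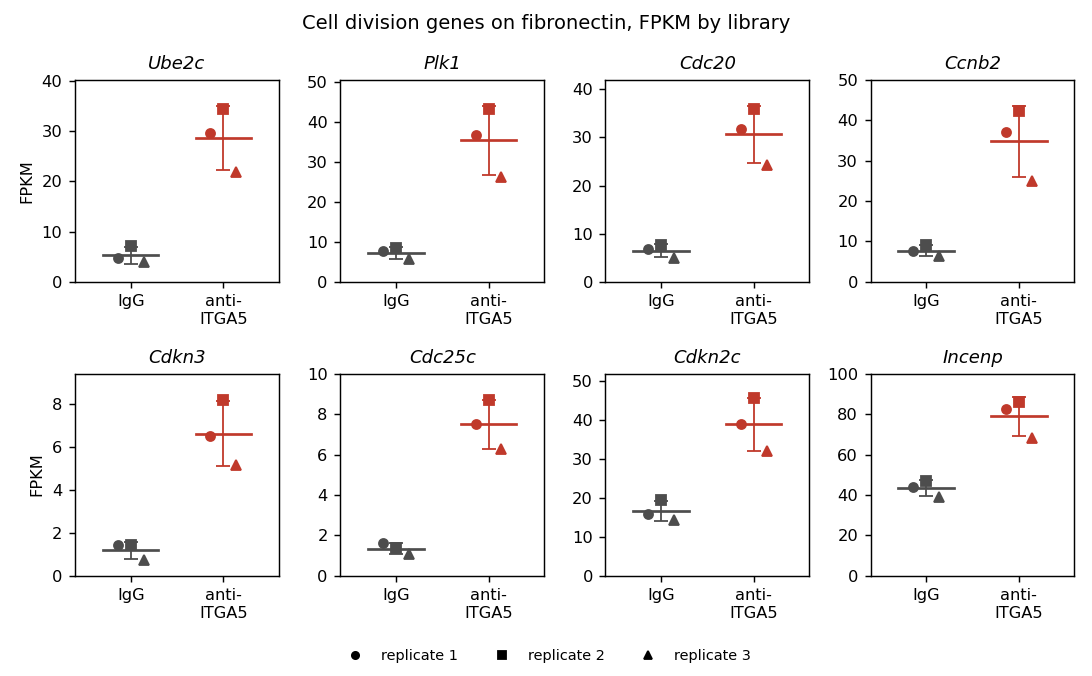
FPKM of 8 cell division genes in the 3 FN IgG libraries (grey) and the 3 FN anti-ITGA5 libraries (red), with the mean as a line, the SD as a bar and the replicate by symbol. In every panel all 3 treated libraries lie above all 3 control libraries, and replicate 3 (triangles) is the lowest treated point.

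Promoters of the mitosis genes were read because genes of this class are known to be repressed in quiescent cells through a short element near the start site, the cell cycle genes homology region (CHR, TTTGAA), often next to CCAAT boxes bound by NF-Y. In windows of 250 bases before to 50 after each start (RefSeq, GRCm38.p6), 34 of the 41 members had an entry. The CHR letters were found on either strand in 26 of these 34 (76.5%), against 14.6% of 9504 tested genes with an entry, and CCAAT in 26 of 34 (76.5%), against 43.3%. The 4 windows printed here, from 200 bases before to 20 after the start, belong to the called members with the largest rises that hold both motifs in this span. They are shown 5′ to 3′ in the direction of the gene, with every CHR and CCAAT match on either strand in capitals (TTCAAA and ATTGG are the matches on the opposite strand). Cdkn3 lies at chr14:46760341-46760560 (plus strand), Ube2c at chr2:164769729-164769948 (plus strand), Cdc20 at chr4:118437324-118437543 (minus strand) and Ccnb2 at chr9:70421535-70421754 (minus strand).
Cdkn3: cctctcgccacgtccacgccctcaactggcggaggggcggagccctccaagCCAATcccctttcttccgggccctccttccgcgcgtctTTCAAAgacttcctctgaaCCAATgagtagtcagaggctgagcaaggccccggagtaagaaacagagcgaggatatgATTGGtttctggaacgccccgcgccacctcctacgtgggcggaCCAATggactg
Ube2c: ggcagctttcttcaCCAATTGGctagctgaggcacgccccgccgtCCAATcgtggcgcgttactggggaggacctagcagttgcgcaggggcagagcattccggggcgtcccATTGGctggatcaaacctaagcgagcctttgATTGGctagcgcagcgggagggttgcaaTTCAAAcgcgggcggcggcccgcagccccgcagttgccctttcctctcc
Cdc20: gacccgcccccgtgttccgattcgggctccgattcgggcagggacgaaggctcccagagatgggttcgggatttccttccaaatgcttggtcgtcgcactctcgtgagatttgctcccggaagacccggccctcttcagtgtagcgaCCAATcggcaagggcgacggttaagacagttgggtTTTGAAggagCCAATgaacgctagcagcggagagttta
Ccnb2: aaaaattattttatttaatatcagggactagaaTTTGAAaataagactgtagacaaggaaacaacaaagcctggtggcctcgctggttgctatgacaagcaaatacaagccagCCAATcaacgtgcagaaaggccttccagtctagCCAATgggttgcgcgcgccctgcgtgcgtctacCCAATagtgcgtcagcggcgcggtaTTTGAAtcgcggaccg
A match describes the letters in the window and shows no binding.

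Of 39 genes of DNA replication tested, 13 were higher, none was lower and the median was 0.16, with no member at a log2 of 1. Rfc5 and Rfc4, subunits of the clamp loader replication factor C, rose by 0.80 and 0.65, and Tyms and Tk1, which supply thymidine nucleotides, by 0.69 and 0.62. Rfc5 had FPKM of 6.1, 6.46 and 5.16 with IgG and of 10.1, 11.4 and 9.46 with anti-ITGA5 (adjusted p = 4.09e-05), and Tyms of 4.9, 5.11 and 4.79 and of 8.19, 8.92 and 6.74 (adjusted p = 1.24e-04). The groups did not overlap in either gene. None of Mcm2 to Mcm7, the subunits of the replicative helicase, passed (0.04 to 0.15). Pcna, the sliding clamp, stood at 273, 276 and 249.8 FPKM with IgG and 275, 289 and 257.5 with anti-ITGA5 (0.04, adjusted p = 0.617). Without FN anti-ITGA5 replicate 3 the count of higher members was 22 (background 15.9%). With total-count scaling it was 20 (background 18.5%). It was 10 without FN IgG replicate 3 or FN anti-ITGA5 replicate 1 or 2, and 12 without FN IgG replicate 1. The E2F letters (TTTGGCGC, TTTCGCGC or TTTCCCGC) were present in 12 of 32 promoters of the list (37.5%), against 4.21% of the tested genes, and in 2 of the 10 promoters of members that were higher.

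Inhibitors of cyclin-dependent kinases and targets of p53 formed a further list. The INK4 inhibitors Cdkn2c and Cdkn2d, which bind CDK4 and CDK6, were the 2 higher members of 20 tested, and 9 were lower (background 13.0%), with a median of -0.21. Cdkn2c went from 15.8, 19.4 and 14.4 to 39.1, 45.6 and 32.0 FPKM (1.23 ± 0.12, adjusted p = 1.45e-05), and Cdkn2d from 15.3, 16.6 and 13.7 to 34.6, 35.3 and 25.1 (1.06 ± 0.12, adjusted p = 3.50e-05). In both the groups were apart. Trp53inp1, a stress-induced partner of p53, fell from 8.93, 10.3 and 8.51 to 4.05, 4.53 and 4.41 FPKM (-1.10 ± 0.08, adjusted p = 2.32e-06), and Phlda3, a p53-induced repressor of Akt, from 31.8, 28.6 and 27.4 to 14.2, 15.1 and 14.9 (-0.99 ± 0.07, adjusted p = 2.49e-06). Cdkn1a (p21), the list member with the highest level, fell by 0.17 (adjusted p = 0.00582), and Mdm2, the p53 ubiquitin ligase, by 0.57.

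Of 20 angiogenic factors and receptors tested, 9 were lower and 2 higher, with a median of -0.16. The other 8 members of the list of 28 had too few counts to test. Vegfa, the main growth factor of endothelial cells (ENSMUSG00000023951, chr17:46016993-46032369, minus strand), had FPKM of 39.4, 43.4 and 41.3 with IgG and of 25.1, 26.7 and 27.7 with anti-ITGA5, which is 64.0% of the IgG mean (log2 fold change -0.65 ± 0.05, adjusted p = 4.09e-06). Every treated library was below every control library. Ecm1, a secreted matrix glycoprotein, went from 53.6, 50.7 and 53.1 to 40.7, 38 and 46.3 FPKM (-0.33 ± 0.06, adjusted p = 0.00186), and Emilin2, an elastin-associated glycoprotein, from 128.5, 121 and 126 to 104, 97.8 and 106 (-0.29 ± 0.04, adjusted p = 3.52e-04). These 3 genes were singled out by the study itself, in part on these libraries, so their direction is not independent evidence. Pdgfb, the platelet-derived growth factor B chain, fell by 0.35, and Thbs1, thrombospondin 1, an inhibitor of angiogenesis, fell from 22.3, 28.9 and 33.3 to 14.5, 15.2 and 21.6 FPKM (-0.73 ± 0.15, adjusted p = 0.00292). Plau, urokinase, rose from 658, 618.5 and 592 to 937, 876 and 819 FPKM (0.49 ± 0.05, adjusted p = 2.49e-05). Angpt2, at 0.663 to 1.32 FPKM, was the other higher member (0.54, adjusted p = 0.0461), and its call was lost in 5 of the 6 fits that leave out a library, all but that without FN anti-ITGA5 replicate 1 (adjusted p up to 0.164). Vegfb was not called (0.15).

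Of 32 genes of matrix and its proteases tested, 13 were lower, 1 was higher and 18 did not pass, with a median of -0.24. Without FN anti-ITGA5 replicate 3, the highest treated library for 24 of the 32, 19 were lower (background 14.9%). The lower count was 11 without FN IgG replicate 1 or 3 or FN anti-ITGA5 replicate 1. Mmp9, gelatinase B (chr2:164940780-164955850, plus strand), went from 8.41, 9.06 and 9.34 to 3.68, 3.31 and 3.76 FPKM (-1.32 ± 0.08, adjusted p = 1.14e-06), and Mmp8, a collagenase, from 31.2, 25.7 and 35.3 to 12.1, 15.6 and 15.5 (-1.10 ± 0.12, adjusted p = 2.51e-05). The groups were apart in both, and the mean of Mmp9 with anti-ITGA5 was 40.1% of that with IgG. The metalloproteinase Mmp19 and the inhibitor Timp2 fell by 0.50 and 0.32. Spp1, osteopontin, the list member with the highest level, went from 2104, 2174 and 2149.5 to 1928, 2075.5 and 1883 FPKM (-0.13, adjusted p = 0.0389), a call that held with all libraries and without FN anti-ITGA5 replicate 2 but in no other fit with a library left out (adjusted p up to 0.15). Fn1, fibronectin itself, was the higher member, at 1.62, 1.53 and 2.24 FPKM with IgG and 2.96, 2.14 and 3.12 with anti-ITGA5. Those groups overlapped (0.61 ± 0.15, adjusted p = 0.00983), and the call was lost without FN IgG replicate 1 or FN anti-ITGA5 replicate 1 (adjusted p up to 0.0574).

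Of 30 glycolysis genes and targets of hypoxia-inducible factor 1 (HIF-1) tested, 23 were lower and none was higher (background 13.0% lower), with a median of -0.30, and 21 to 24 were lower in the fits that left out a library. The calls covered glucose transport (Slc2a1, which fell by 0.44), the kinase step (Hk2, by 0.56) and lactate dehydrogenase (Ldha, by 0.29). Egln3, an oxygen-sensing prolyl hydroxylase that HIF-1 induces, went from 17.3, 15.6 and 19.2 to 10.4, 8.6 and 10.1 FPKM (-0.84 ± 0.09, adjusted p = 3.10e-05), and Hk2 from 32.8, 29.9 and 35.5 to 22.4, 19.6 and 24.7 (-0.56 ± 0.08, adjusted p = 2.12e-04). In both genes the treated libraries were all below the control libraries. Pgk1, phosphoglycerate kinase and the most abundant member, went from 1113, 1039 and 1090.3 to 952, 926 and 918 FPKM (-0.22, adjusted p = 0.00123). Ddit4, an inhibitor of mTORC1 that hypoxia and stress induce, fell from 3.07, 3.53 and 3.07 to 1.17, 1.62 and 2.17 FPKM (-0.98 ± 0.20, adjusted p = 0.00308). Bnip3, a mitophagy receptor, fell by 0.45. The 7 members that did not pass included Pfkp (0.12), P4ha1 (-0.08) and Pdk1 (-0.06). Without FN anti-ITGA5 replicate 3, or with total-count scaling, 1 member was higher.

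The core letters of the hypoxia response element (HRE, ACGTG) were found in 20 of 28 promoters of this list (71.4%), against 29.5% of tested genes. The list was made up in part of known HIF-1 targets, so this share describes the list and not the response. Ddit4 is shown because it fell most among the called members with a match between 200 bases before and 20 after the start, at chr10:59951751-59951970 (minus strand), with the match in capitals.
Ddit4: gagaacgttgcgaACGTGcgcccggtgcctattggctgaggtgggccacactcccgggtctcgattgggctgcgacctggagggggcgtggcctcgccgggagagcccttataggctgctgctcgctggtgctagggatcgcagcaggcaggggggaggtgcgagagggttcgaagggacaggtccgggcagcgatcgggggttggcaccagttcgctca
Of the 21 lower members with a promoter entry, 15 held the letters.

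NRF2 is a regulator of genes that counter oxidants. Of 25 of its targets tested, 17 were lower and none was higher, with a median of -0.43, and 14 to 19 were lower with each library left out. Nqo1, a quinone reductase, went from 12.5, 12.1 and 13.9 to 4.45, 6.37 and 7.09 FPKM (-1.11 ± 0.14, adjusted p = 8.62e-05). Hmox1, heme oxygenase 1, went from 1879, 1534 and 2043 to 1222, 1033.5 and 1325 FPKM (-0.61 ± 0.10, adjusted p = 5.83e-04). In both, each treated library was below each control library. Taldo1, an enzyme of the pentose phosphate pathway, fell from 365, 345 and 359 to 227.5, 226 and 225 FPKM (-0.66 ± 0.04, adjusted p = 6.21e-07), and Fth1, the ferritin heavy chain and by level the most abundant member, from 20809, 20018.5 and 21504.5 to 15059.6, 15879.9 and 15306 (-0.43 ± 0.04, adjusted p = 1.05e-05). The peroxiredoxin Prdx1, catalase (Cat) and the glutathione synthesis subunit Gclm fell by 0.58, 0.56 and 0.55. The values of Txnrd1 (0.01), Srxn1 (-0.12) and Gclc (-0.14) did not pass the test.

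The letters of the antioxidant response element (ARE, TGACNNNGC) were found in 8 of 22 promoters of the NRF2 list (36.4%), against 17.3% of tested genes. Only 4 of the 15 lower members with an entry held them. Prdx1 is shown as the called member with the largest fall and a match in the span, at chr4:116685399-116685618 (plus strand), where the capitals are the match on the opposite strand.
Prdx1: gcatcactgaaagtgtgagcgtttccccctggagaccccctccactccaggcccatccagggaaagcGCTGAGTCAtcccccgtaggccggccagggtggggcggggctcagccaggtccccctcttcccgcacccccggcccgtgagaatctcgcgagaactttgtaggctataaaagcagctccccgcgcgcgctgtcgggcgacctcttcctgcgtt
Its FPKM were 694, 655 and 766 with IgG and 457, 474 and 483 with anti-ITGA5 (adjusted p = 9.70e-06).

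**Figure D3:**
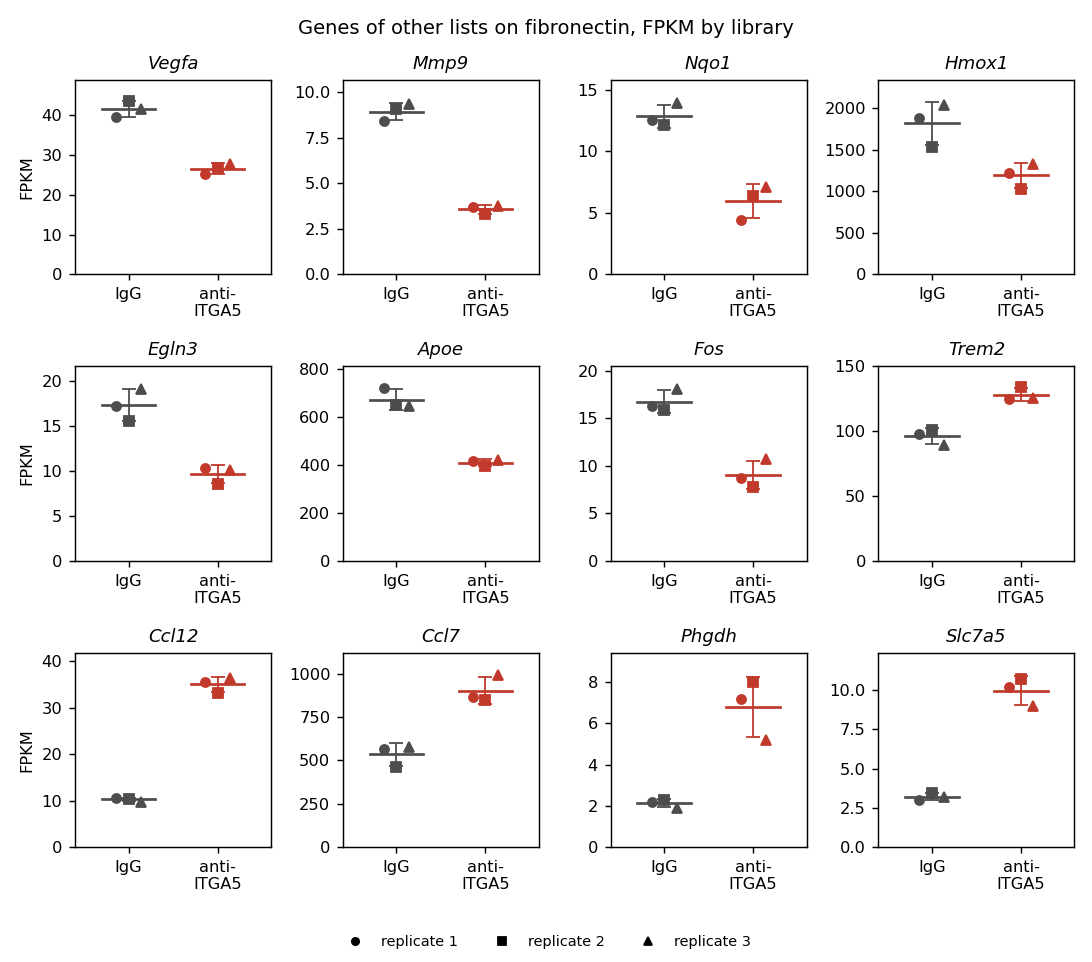
FPKM of 12 genes from the angiogenic, alternative activation, matrix, NRF2, hypoxia, lipid, immediate early, chemokine and ATF4 lists in the 3 FN IgG (grey) and 3 FN anti-ITGA5 (red) libraries, with means as lines, SD as bars and replicates by symbol. The 7 genes from Vegfa to Fos lie lower with anti-ITGA5, as Vegfa does at 25.1 to 27.7 against 39.4 to 43.4, and the 5 from Trem2 to Slc7a5 lie higher, as Ccl12 does at 33.1 to 36.4 against 9.84 to 10.6.

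Of 22 genes of lipid uptake, storage and efflux tested, 15 were lower and none was higher, with a median of -0.34. Apoe, the lipoprotein that macrophages secrete to carry cholesterol away, went from 721, 648 and 645 to 416.5, 394 and 419 FPKM (-0.71 ± 0.05, adjusted p = 2.08e-06). Abca1, a cholesterol exporter, fell by 0.67 (adjusted p = 0.0089, or 0.0562 without FN anti-ITGA5 replicate 1), and Fabp4, a fatty acid carrier, from 10.3, 10.2 and 9.38 to 5.31, 6.33 and 5.94 FPKM (-0.77 ± 0.08, adjusted p = 1.62e-05). Lipa, the lysosomal acid lipase, fell from 704, 709.8 and 712 to 532, 528 and 546.5 FPKM (-0.40, adjusted p = 6.60e-06). Fasn and Acaca, which build fatty acids, had values of -0.01 and -0.02 and did not pass. Genes of cholesterol synthesis showed 1 higher (Mvk, 0.34) and 1 lower member (Sc5d, -0.26) of 23 tested with a median of -0.07, which is below the background share in each direction with this fit. That list had 5 lower members without FN anti-ITGA5 replicate 2, 4 without FN IgG replicate 3 and none without any other library. The call of Mvk held only without FN anti-ITGA5 replicate 1 among the fits with a library left out (adjusted p up to 0.167). The sterol response element letters (SRE, TCACNCCAC) were present in 1 of 16 of its promoters (6.25%), against 1.35% of tested genes.

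Of 32 lysosome genes, all tested, 15 were lower and 3 higher, with a median of -0.11. Psap, prosaposin, an activator of sphingolipid hydrolases, went from 3372, 3324 and 3312 to 2446, 2350.1 and 2509 FPKM (-0.46 ± 0.04, adjusted p = 4.37e-06). The cathepsins Ctsh and Ctsl fell by 0.64 and 0.39, and Tfeb, a transcription factor of lysosome genes, by 0.42. Gusb, Atp6v0d1 and Ctsc were the higher members, at 0.26, 0.21 and 0.16, the last of which was lost without FN anti-ITGA5 replicate 1 or any FN IgG library (adjusted p up to 0.178).

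Targets of ATF4, the factor that raises amino acid supply genes under stress, were mostly higher, with 10 higher and 3 lower of 18 tested and a median of 0.57. Phgdh, the enzyme that opens serine synthesis, went from 2.21, 2.27 and 1.91 to 7.19, 8.02 and 5.21 FPKM (1.68 ± 0.15, adjusted p = 1.05e-05). Slc7a5, the light chain of the LAT1 transporter of large neutral amino acids, went from 2.99, 3.46 and 3.2 to 10.2, 10.7 and 8.97 FPKM (1.63 ± 0.09, adjusted p = 5.02e-07). The groups did not overlap in either gene, with treated means at 319.5% and 310.5% of the IgG means. Mthfd2, of mitochondrial folate metabolism, Aldh18a1, of proline synthesis, and Asns, asparagine synthetase, rose by 0.88, 0.74 and 0.71, and Atf4 itself by 0.59. The members that fell were Vldlr (-1.39, at 0.0213 to 0.187 FPKM, and not called without FN IgG replicate 3, adjusted p = 0.0603), Cebpb (-0.47) and Atf3 (-0.36). Ddit3 (CHOP) and Trib3, which are tied to the death arm of the response, had values of 0.17 and 0.23 and did not pass. Of 12 genes for chaperones and sensors of the endoplasmic reticulum, 7 were higher and 2 lower, with a median of 0.15. Herpud1, of protein disposal there, rose by 0.58, Pdia4, a disulfide isomerase, by 0.47 and Hspa5 (BiP) by 0.17, while Dnajb9 fell by 0.31 and Ern1 by 0.22.

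Of 84 respiratory chain genes 9 were higher and 3 lower (median 0.04), and of 77 ribosomal protein genes 14 were higher and none was lower (median 0.05). These shares were 10.7% and 18.2% higher, against a background of 14.3%, and they depended on the scaling and on single libraries. Rpl7a and Rpl4, of the large subunit, had log2 fold changes of 0.22 and 0.19, and Ndufs1, of complex I, of 0.29. Higher ribosomal protein genes numbered 24 with total-count scaling (background 18.5%), 24 without FN anti-ITGA5 replicate 3 (background 15.9%), 4 without FN anti-ITGA5 replicate 1, 6 without its replicate 2, and 5 without FN IgG replicate 2 or 3. Higher respiratory chain genes numbered 14 without FN anti-ITGA5 replicate 3, 4 without FN anti-ITGA5 replicate 1, and 3 with any other library left out, and the lower ones numbered 1 without FN IgG replicate 1 or with total-count scaling. FN anti-ITGA5 replicate 3 was the lowest of its group for 69 of the 77 ribosomal genes.

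Of 24 cytokine and chemokine genes tested, 9 were higher and 5 lower, with a median of 0.17, and the other 12 listed had too few counts. Ccl12, a ligand of CCR2 that draws monocytes (chr11:82101845-82103400, plus strand), went from 10.6, 10.4 and 9.84 to 35.5, 33.1 and 36.4 FPKM (1.77 ± 0.10, adjusted p = 5.02e-07). Ccl7 and Ccl2, ligands of the same receptor, rose from 566, 459.6 and 578 to 866, 849.6 and 992.5 FPKM (0.76 ± 0.08, adjusted p = 2.74e-05) and from 711, 589.8 and 658 to 983, 953 and 949 (0.56 ± 0.06, adjusted p = 1.89e-05). None of the 3 overlapped between groups. The chemokines Ccl4 and Ccl3 rose by 0.64 and 0.54, and Il1rn, the interleukin 1 receptor antagonist, by 0.80. Tnf rose by 0.21 (adjusted p = 0.0204), whereas Il1b was not called (0.21). The lower members were Socs3 (-0.73), Nfkbia (-0.39) and Tnfaip3 (-0.37), which restrain cytokine signalling, and the chemokines Pf4 (-0.33) and Cxcl14 (-0.27). The call of Tnf was lost without FN IgG replicate 1 or 2 or FN anti-ITGA5 replicate 1 or 2 (adjusted p up to 0.0734), and that of Socs3 without FN IgG replicate 2 or 3 or FN anti-ITGA5 replicate 1 or 2 (up to 0.134).

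Immediate early genes and genes of MAPK feedback fell in 9 and rose in 2 of 27 tested, with a median of -0.17. Fos, a subunit of AP-1, went from 16.3, 15.9 and 18.1 to 8.67, 7.77 and 10.7 FPKM (-0.90 ± 0.10, adjusted p = 4.57e-05). Junb and the phosphatase Dusp1 fell by 0.38 and 0.39. Egr1, at 0.586 to 0.881 FPKM, was not called (-0.31, adjusted p = 0.234). The count of lower members was 5 without FN IgG replicate 1 or FN anti-ITGA5 replicate 1, and 1 was higher when any library but FN anti-ITGA5 replicate 3 was left out.

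Markers of alternative activation went both ways, with 4 higher and 5 lower of 14 tested and a median of -0.13. Klf4, a transcription factor of this state, fell by 0.48. Trem2, a lipid receptor, rose from 97.9, 101 and 89.3 to 125, 134 and 126 FPKM (0.41 ± 0.05, adjusted p = 6.60e-05), and Mrc1, the mannose receptor, by 0.29 (adjusted p = 0.00755). The count of higher members was 1 without FN anti-ITGA5 replicate 1 and 2 without FN IgG replicate 1. That of lower members was 2 without FN anti-ITGA5 replicate 2 and 3 without FN IgG replicate 1, FN IgG replicate 3 or FN anti-ITGA5 replicate 1. Among these, Klf4 was lost without FN IgG replicate 1 or FN anti-ITGA5 replicate 2 (adjusted p up to 0.0867) and Mrc1 without FN anti-ITGA5 replicate 1 (0.0502).

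Among 17 scavenger and apoptotic cell receptor genes tested, 7 were lower and 2 higher (median -0.12), with Mertk, which engulfs dying cells, down from 22.4, 22.0 and 22.6 to 16.8, 15.8 and 18.1 FPKM (-0.40, adjusted p = 1.36e-04) and the adaptor Tyrobp down by 0.35. Among 11 complement genes 4 were lower and 1 higher (median -0.15), the former including the receptor gene C3ar1 (-0.27). Among 12 genes of Fcγ receptors and their kinases 3 were lower and 1 higher (median -0.09), with Fcgr4, Fcgr3 and Syk at -0.34, -0.25 and -0.24 and Lyn at 0.15. Toll-like receptor genes showed 3 higher and 5 lower members of 18 (median -0.05). Tlr2 and Tlr1, which pair at the cell surface to sense lipopeptides, rose by 0.44 and 0.39, and the endosomal Tlr8, Tlr9 and Tlr13 fell by 0.47, 0.71 and 0.20. Osteoclast and fusion genes, 8 tested, were lower in 3 with a median of -0.42. These were Mmp9, Acp5 (tartrate-resistant acid phosphatase, -0.93) and Tnfrsf11a (RANK, -0.20). With total-count scaling 4 scavenger receptor genes were lower (background 9.71%), and 5 Toll-like receptor genes were higher and 5 lower. Lower scavenger receptors numbered 3 without FN anti-ITGA5 replicate 1 and 4 without FN IgG replicate 2, and lower Fcγ genes 5 without FN anti-ITGA5 replicate 3. No complement gene was higher without FN IgG replicate 1 or 3 or FN anti-ITGA5 replicate 2, no Fcγ gene without FN IgG replicate 2 or 3 or FN anti-ITGA5 replicate 1, and 1 scavenger receptor gene was higher without FN anti-ITGA5 replicate 1. The call of Fcgr4 held only without FN anti-ITGA5 replicate 3 among the fits with a library left out (adjusted p up to 0.114), that of Lyn was lost in the 3 fits named for the Fcγ genes (up to 0.0892), and that of Tlr9 without FN IgG replicate 2 or FN anti-ITGA5 replicate 1 (up to 0.0824).

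Interferon-stimulated genes depended on FN anti-ITGA5 replicate 3. With all 6 libraries 53 of the 55 listed genes could be tested, and 2 were lower and none higher, with a median of -0.23 (background 13.0% lower). In FN anti-ITGA5 replicates 1 and 2 the median gene stood at 0.66 and 0.62 of its mean in FN IgG, and in replicate 3 at 1.33. The FN IgG libraries stood at 1.02, 0.93 and 1.08. Replicate 3 held the highest value of all 6 libraries for 46 of the 53 genes, and its median ratio to the mean of the other FN anti-ITGA5 libraries was 1.96.

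Without FN anti-ITGA5 replicate 3, 42 of 51 genes were lower and none was higher, with a median of -0.63, in a fit that called 14.9% of 12877 genes lower and 15.9% higher. The 2 remaining treated libraries then carry the spread of that group. Ifitm3, a membrane protein that blocks viral entry, was lower in both fits. Its FPKM were 726, 677 and 722 with IgG and 397, 375 and 583 with anti-ITGA5, with log2 fold changes of -0.65 (adjusted p = 0.00171) with all libraries and -0.88 (adjusted p = 4.94e-10) without replicate 3. Irf9, a subunit of the ISGF3 complex, was the other, at -0.39 (adjusted p = 0.0425) and -0.63 (adjusted p = 1.45e-06), and its call was lost with any other library left out (adjusted p up to 0.179). The following genes were chosen after their values were seen. Irf7, a regulator of interferon genes, had FPKM of 8.79, 7.43 and 10.4 with IgG and of 3.15, 2.53 and 15.6 with anti-ITGA5, and changed by -0.35 (adjusted p = 0.628) with replicate 3 and -1.64 (adjusted p = 7.85e-08) without it. Oas3, which makes the activator of RNase L, had 18.2, 15.3 and 19.3 and then 7.3, 6.41 and 23.2 (-0.53, adjusted p = 0.29, and -1.36, adjusted p = 2.87e-09). In both, replicates 1 and 2 lay below every control library and replicate 3 above. Isg15, a ubiquitin-like modifier, had 9.92, 8.63 and 10.6 and then 6.27, 4.19 and 17.9 (-0.06, adjusted p = 0.924, and -0.88, adjusted p = 0.00132). Leaving out FN anti-ITGA5 replicate 2 instead moved the median of the list to 0.04, with 1 gene lower and 1 higher.

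The letters GAAANNGAA of the interferon-stimulated response element (ISRE), or their reverse complement, were present in 26 of 42 promoters of the list (61.9%), against 8.83% of tested genes. Ifi44 had the largest fall without replicate 3 among genes with a match in the span, with FPKM of 0.426, 0.262 and 0.475 with IgG and 0.0756, 0.0789 and 0.829 with anti-ITGA5. Its promoter at chr3:151749891-151750110 (minus strand) is shown with the match, on the opposite strand, in capitals.
Ifi44: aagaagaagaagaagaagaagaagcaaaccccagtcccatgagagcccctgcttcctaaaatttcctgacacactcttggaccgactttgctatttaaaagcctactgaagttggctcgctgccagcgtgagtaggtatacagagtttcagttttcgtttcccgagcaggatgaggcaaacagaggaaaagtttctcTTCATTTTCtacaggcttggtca
The level of this gene is low, and its log2 fold change was -0.29 with all libraries (adjusted p = 0.781) and -2.30 without replicate 3 (adjusted p = 2.21e-04).

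**Figure D4:**
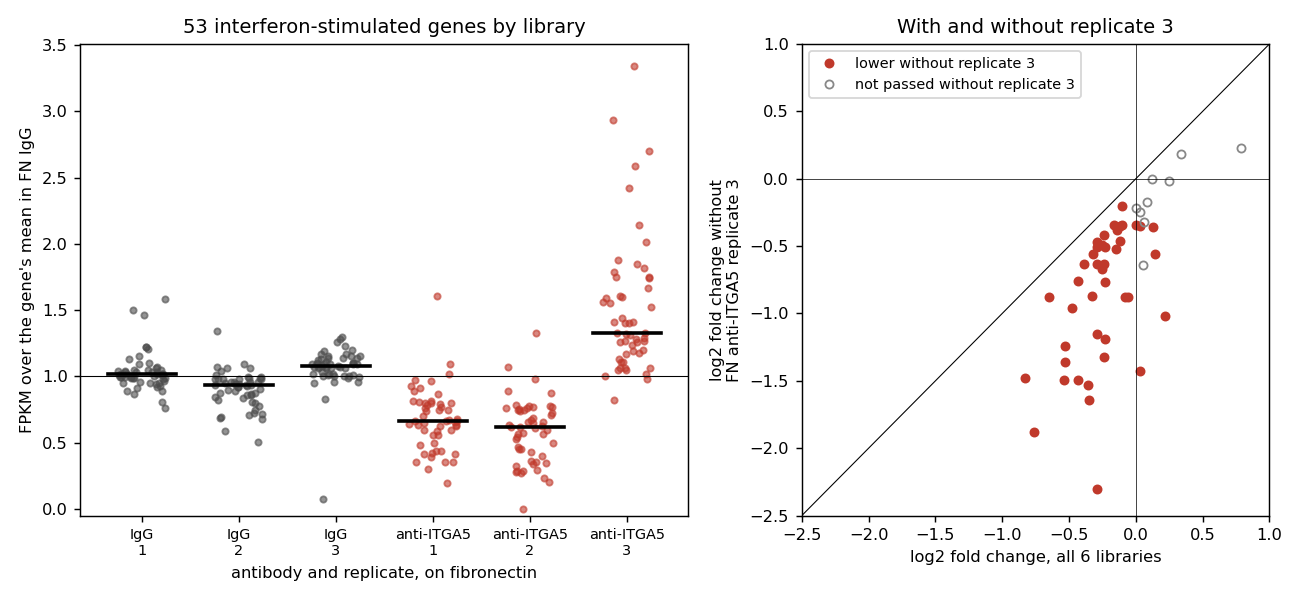
Left, FPKM of 53 interferon-stimulated genes in each FN library, divided by the gene's mean in FN IgG, with medians as bars; right, log2 fold changes with all 6 libraries against those without FN anti-ITGA5 replicate 3 for the 51 genes in both fits, filled where lower in the latter. The medians are 0.66, 0.62 and 1.33 in FN anti-ITGA5 replicates 1, 2 and 3, and 42 genes are filled.

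With all 6 libraries 4 of 19 genes on the MHC class I list, which takes in peptide loading, were higher and 2 lower, with a median of 0.06. The higher ones included Calr (0.16) and Pdia3 (0.14), which are general folding proteins of the endoplasmic reticulum. The classical genes H2-K1 and H2-D1 were lower, with log2 fold changes of -0.21 and -0.19, and without FN anti-ITGA5 replicate 3 their values were -0.31 and -0.26, with 6 members lower and a list median of -0.015. B2m, the light chain, had FPKM of 1285, 1209 and 1311 with IgG and of 1049, 1041 and 1298 with anti-ITGA5, and passed only without replicate 3 (-0.28, adjusted p = 8.90e-05, against -0.17, adjusted p = 0.102). Class I members that were higher numbered 2 without FN IgG replicate 3. No class I member was lower when FN IgG replicate 1 or 3, or FN anti-ITGA5 replicate 1 or 2, was left out (adjusted p up to 0.142 for H2-K1 and 0.132 for H2-D1). The nonclassical H2-Q4 and H2-M3 were higher, by 0.55 and 0.28, the latter not without FN IgG replicate 3 (0.0606). Reads of near-identical H2 genes may be shared between them, so their single values are uncertain. Of 10 MHC class II genes 1 was lower, Ctss, the cathepsin that processes the invariant chain, from 1076, 1013 and 1059.5 to 743, 705 and 802 FPKM (-0.49 ± 0.05, adjusted p = 1.62e-05). Cd74 and H2-Ab1 were not called (-0.22 and -0.23), and the list median was -0.19.

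Some of the largest changes lay outside these lists. Pif1, a DNA helicase, had the largest rise among called genes with groups apart and a mean count of at least 50, from 0.718, 0.932 and 0.541 to 7.06, 7.27 and 5.39 FPKM (3.15 ± 0.16, adjusted p = 4.14e-07). Sapcd2, a regulator of spindle orientation, rose by 2.58, Ankle1, an endonuclease, by 2.07 and Fam83d, a spindle protein, by 2.01. In all 4 the groups were apart. Gsta3, a glutathione S-transferase, fell from 3.49, 4.27 and 4.82 to 1.34, 1.43 and 1.49 FPKM (-1.56 ± 0.13, adjusted p = 4.72e-06), and Pla2g7, platelet-activating factor acetylhydrolase, from 16.2, 14.8 and 23.4 to 5.71, 6.05 and 9.89 (-1.34 ± 0.20, adjusted p = 3.05e-04). The span of Pla2g7 meets another annotated gene. Low-level genes with large falls were Olfr920, an olfactory receptor gene (-2.17, at 0.7 to 0.859 FPKM with IgG and 0.108 to 0.222 with anti-ITGA5), Klhl3 (-1.41), Tsku (-1.39), Ghrl (-1.35) and Mipol1 (-1.33). A clone-named gene was the remaining member of the 10 largest falls.

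Defining genes of macrophages were present in every library. Csf1r, the CSF-1 receptor, had FPKM of 287 to 319 across the 6 libraries and Adgre1 (F4/80) of 165 to 184, and neither passed (-0.02 and 0.10). Of 12 macrophage markers 6 were lower and 1, Cd14, was higher, with a median of -0.15. Cd14 (0.25) was not called without FN IgG replicate 1 or 3 or FN anti-ITGA5 replicate 1 or 2 (adjusted p up to 0.0834). The summed level of the markers was 9794.5 to 10009.9 FPKM with IgG and 7541.1 to 7697.8 with anti-ITGA5. Lyz2, lysozyme, gave most of that difference, at 7817, 7699.9 and 7909.5 against 5718, 5751 and 5603 FPKM (-0.46 ± 0.03, adjusted p = 2.74e-06). Markers of other cells were low. No marker of T and NK cells (7 listed, at most 1 count in a library), dendritic cells (6, at most 16), erythroid cells (5, at most 9) or mast cells and basophils (4, at most 3) had enough counts to test. Of 8 fibroblast markers 3 were tested and none was called, with summed levels of 0.329 to 0.445 and 0.264 to 0.325 FPKM. Of 8 neutrophil markers 2 were tested and none was called (3.04 to 4.53 and 1.86 to 3.0). Of 5 endothelial markers 1 of 3 tested, Vwf, was lower (-0.30), with summed levels of 8.8 to 9.78 and 7.59 to 8.63, and of 5 B cell markers the 1 tested, Cd79b, was lower (-0.72, adjusted p = 0.0118, or 0.0643 without FN IgG replicate 1), with sums of 3.44 to 4.59 and 1.98 to 2.81.

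Whether the response differed from that on uncoated dishes was tested as the interaction of antibody and coating over all 12 libraries. Of 13611 genes 3 passed (0.0220%), and none of them belonged to the mitosis, HIF-1 or NRF2 lists. Lpl, lipoprotein lipase, had FPKM of 133, 141 and 142 with IgG and 96.3, 101 and 110.1 with anti-ITGA5 on fibronectin, and of 84.1, 86.3 and 84.2 and then 97.6, 95.9 and 99.3 on uncoated dishes. It fell upon neutralization on fibronectin (-0.44, adjusted p = 4.82e-05) and rose without coating (0.21, adjusted p = 0.011), a difference of -0.65 ± 0.07 (adjusted p = 0.001567). Mmp12, macrophage metalloelastase, had 69.2, 73.5 and 75.6 and then 64.2, 75.3 and 65.3 FPKM on fibronectin, and 45.9, 48.7 and 49.0 and then 71.2, 70.2 and 68.2 without coating. Its groups overlapped on fibronectin (-0.09, adjusted p = 0.272) and were apart without coating (0.55), a difference of -0.65 ± 0.08 (adjusted p = 0.007668). The IgG levels of both genes were higher on fibronectin than without coating, a difference that was not tested here, and the treated levels lay between 95.9 and 110.1 FPKM for Lpl and 64.2 and 75.3 for Mmp12. Vegfa, by comparison, changed by -0.65 and -0.57, and its interaction was not called (-0.08, adjusted p = 0.9999). Of the 1862 genes higher on fibronectin that were also tested without coating, 1158 passed as higher there and none as lower, and of 1678 lower genes 913 passed as lower and 1, Lpl, as higher. Of all 13015 genes tested without coating, 10.8% were higher and 9.61% lower. The comparisons use separate libraries, so no control is shared.

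**Figure D5:**
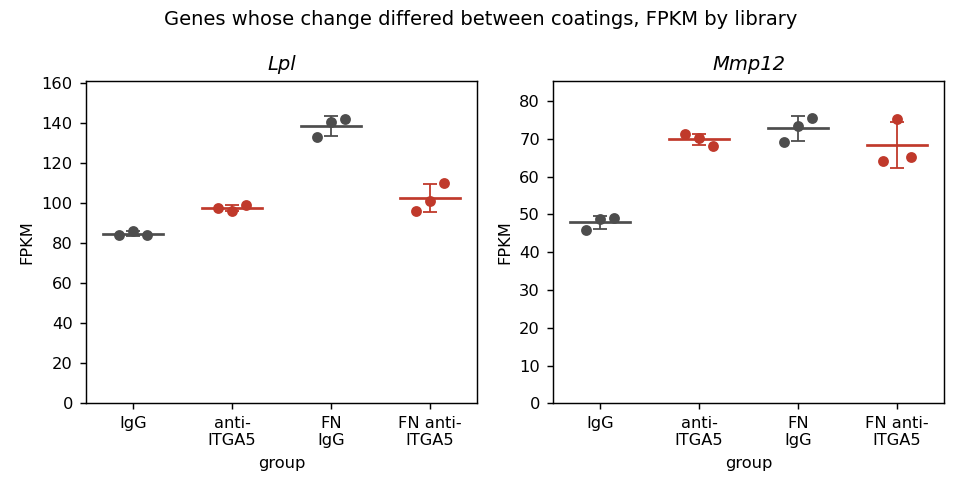
FPKM of Lpl and Mmp12 in all 12 libraries, 3 points per group with means as lines and SD as bars, grey for IgG and red for anti-ITGA5. Lpl lies at 133 to 142 in FN IgG and at 96.3 to 110.1 in FN anti-ITGA5, while without coating it lies at 84.1 to 86.3 and 95.9 to 99.3.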

How the data were processed

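RNA from 12 BMM libraries in 4 groups of 3 had been made with oligo(dT) selection and sequenced in pairs, and the 6 fibronectin libraries were analysed here, with all 12 for the interaction. Per the methods and the submitters' processing notes, the authors aligned reads to mm10 with TopHat2 2.0.9, used Cufflinks 2.1.1 and counted reads per Ensembl gene with HTSeq 0.6.1. The deposited values are raw counts per gene and library and, in another table, FPKM that the authors computed from those counts, gene length and a scaled library total. The strand setting and the annotation release are not given in the sources used here, so reads of overlapping genes on opposite strands may be shared. No per-sample column was left unused.

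Genes with at least 10 counts in 3 or more of the 6 libraries were fitted in edgeR 4.0.16 (R 4.3.3) with TMM scaling and the quasi-likelihood test, without covariates, and called at a Benjamini-Hochberg adjusted p at or under 0.05 over all genes tested. Fold changes are from this fit and the standard error is the fold change over the root of F. FPKM served for levels only. Total counts of 16364962 to 22075432 per library set the precision. Tested on simulated data of 13023 genes for this comparison, the fit recovered 199 of 200 genes changed by a log2 of 1 and 167 of 200 changed by 0.5, with 19 unchanged genes called in each.

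The text names Itga5, Itgb1, Vegfa, Ecm1 and Emilin2, the 10 largest rises and falls among called genes with groups apart and a mean count of at least 50, up to 4 called members per list by size of change plus the most abundant member, and the 5 genes with the smallest interaction p. Other members are named for their role, after their values were seen, and a few genes of these lists are not reported here. The 27 gene lists and 9 marker lists were chosen with earlier results of these data known, so counts over them are descriptions. A symbol shared by several gene IDs, of which there were 100, took the ID with most counts. Promoters are those of RefSeq (GRCm38.p6), 250 bases before to 50 after the start, searched on both strands for the letters given, and figures were drawn with matplotlib 3.10.9. A list of known targets may hold the motif of its factor through the choice of members. Motif shares therefore describe the lists and not the response to the antibody. Same-numbered libraries were checked for pairing, and alternatives covered DESeq2 1.42.0 and its size factors, total-count scaling, other count filters, thinning, limma 3.58.1 on log2(FPKM + 1) and log2(FPKM + 0.1), a replicate block, all 12 libraries, stricter thresholds and each library left out in turn.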

Additional observations from a re-analysis of the deposited data

Results flagged for a closer look

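The effect of ITGA5 neutralization differed between fibronectin and uncoated dishes for 3 genes by the test of the difference itself, the interaction of antibody and coating in edgeR's quasi-likelihood fit over 12 libraries. Lpl had an interaction of -0.65 on the log2 scale, and with each of the 12 libraries left out in turn it stayed between -0.71 and -0.60 and was called each time. Mmp12 had an interaction of -0.65 and was called in 10 of 12 such fits, not without FN IgG replicate 3 or uncoated IgG replicate 1 (adjusted p up to 0.0577). Gm18194, a gene model known by its number only, had an interaction of -6.15 (adjusted p = 0.0157) from low counts. Its counts were 36, 11 and 44 in FN IgG and 3, 11 and 17 in FN anti-ITGA5, against 8, 5 and 11 and then 97, 200 and 324 without coating, and it was called in 5 of 12 fits with a library left out. By rank, Dusp6 (0.40, adjusted p = 0.341) and Tmem134 (-0.38, adjusted p = 0.817) came next and were not called.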

How the results depend on the processing

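Against 1693 lower and 1867 higher genes, 926 and 1123 passed at an adjusted p of 0.01, and 141 and 184 had a log2 change of at least 1. With each library left out in turn, 1122 to 1921 genes were lower and 1312 to 2046 higher, the fewest lower without FN anti-ITGA5 replicate 1. Called genes changed sign in none of 17 alternatives, and of 129 called named genes 97 kept the call in all 17 and 32 lost it in at least 1. The interaction count of 3 was 65 with no filter on counts, and 1 to 6 with a library left out (1 without FN IgG replicate 3 or uncoated IgG replicate 1, 6 without uncoated anti-ITGA5 replicate 3). With a library left out the median of the interferon-stimulated genes ran from -0.629 (without FN anti-ITGA5 replicate 3) to 0.04 (without its replicate 2). Medians near 0 turned sign for MHC class I (-0.015 to 0.108) and cholesterol synthesis (-0.15 to 0.011), both without FN anti-ITGA5 replicate 3, and for focal adhesion and actin (-0.057 to 0.031), at 0.005 without that library and 0.031 without FN IgG replicate 3. Of genes that were not called, Pcna (-0.0124 to 0.0795) was at -0.0124 without FN IgG replicate 3 and -0.0029 without FN anti-ITGA5 replicate 2, Fcer1g (-0.0215 to 0.0577) at -0.0066 and -0.0215 in the same fits, and Col1a1 (-0.4232 to 0.0781) at 0.0781 in the latter. With total-count scaling 5 lysosome genes were higher (3 with TMM) and no MHC class I gene was lower (2 with TMM). The cause of these shifts was not tested. With a replicate block 2209 genes were lower and 2327 higher, all of the main calls among them, and lower members numbered 20 for interferon-stimulated genes, 8 for cholesterol synthesis (1 without the block), 6 for integrins (3), 5 each for respiratory chain and osteoclast genes (3 each) and 4 for MHC class I (2). Higher members with the block numbered 23 for DNA replication (13), 15 for the respiratory chain (9), 8 for focal adhesion and actin (4), 5 for lysosome (3), 2 for cholesterol synthesis (1) and 1 for glycolysis and HIF-1 targets (0). Correlations of deviations between same-numbered libraries were 0.071, 0.207 and 0.245, against -0.205 to 0.032 for other pairs. Each library thus correlated best with its own number. For DNA replication genes, FN anti-ITGA5 replicate 3 was lowest of its group in 37 of 39 and FN IgG replicate 3 in 35. Whether same-numbered libraries are paired was not tested, and the main fit does not allow for it. Thinning to the smallest library kept 1546 of the lower and 1730 of the higher calls. Whether depth limits low-level genes such as Angpt2 and Vldlr was not tested.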

Other observations

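Genes outside the lists also moved, and those given here were chosen after their values were seen. Stmn1, a tubulin-binding protein, rose from 50.2, 54.7 and 43.0 to 94.3, 107 and 75.5 FPKM (log2 fold change 0.90, adjusted p = 6.68e-05 in edgeR's quasi-likelihood test, as for the other genes), and H2afx, the histone variant H2A.X, from 10.2, 10.6 and 9.78 to 40.5, 48.7 and 30.8 (1.97, adjusted p = 2.17e-06). The β-tubulin genes Tubb5 and Tubb4b rose by 0.32 and 0.59, and Hmgb2, a chromatin protein, by 0.98. FN anti-ITGA5 replicate 3 was the lowest of its group in these genes, as in the mitosis list. Among lower genes, Slpi, an inhibitor of neutrophil elastase, fell from 11.1, 12.1 and 15.8 to 6.72, 6.65 and 6.87 FPKM (-0.94, adjusted p = 2.12e-04), and Prdx6, a peroxiredoxin, from 45.8, 44.6 and 49.1 to 26.5, 28.4 and 29.8 (-0.72, adjusted p = 2.49e-06). Notch4 fell by 1.13 at levels below 1 FPKM, and Ppbp, the precursor of a platelet chemokine, by 0.98.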
